A study of Homo sapiens with 12 samples.

Results

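The genes described here encode the subunits of NF-kB, a transcription factor family, and a set of its textbook feedback regulators and targets. They are the subunit genes NFKB1, NFKB2, RELA and RELB, the regulator genes NFKBIA, NFKBIZ and TNFAIP3, the survival gene BIRC3, the adhesion gene ICAM1 and the superoxide dismutase gene SOD2. They were chosen by symbol, as 10 of the 61541 gene identifiers in the deposited tables. Each symbol matched an Ensembl identifier with values in every table, and all 10 were among the 12329 genes with enough counts to be tested. In resting cells, IkB proteins hold NF-kB dimers in the cytoplasm, and kinases switched on by cytokines, microbial products or DNA damage mark IkB for destruction. The freed dimers enter the nucleus and induce inflammatory genes together with the genes of their own inhibitors, so that the response shuts itself down. In senescent fibroblasts NF-kB is known as a main driver of secreted inflammatory factors.

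Polyadenylated RNA was taken from IMR90 cells, a standard human fibroblast line derived from fetal lung and labelled as wild type. All groups had been exposed for 24 h to doxorubicin, an anthracycline that damages DNA, and were then kept for at least 8 days so that senescence could develop. There were 4 groups of 3 libraries: soft gel of 2 kPa with 250 nM doxorubicin, plastic with 250 nM, gel with 100 nM and plastic with 100 nM. The series asks how substrate stiffness shapes senescent fibroblasts, and no untreated library was among the 12. The titles give the doses in nM where the treatment protocol gives the same figures in µM, and the protocol speaks of PDMS-coated plates where the design speaks of a gel. Replicates are not said to be separate cultures, so the p-values speak only of the spread among these libraries, which may be technical.

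Library totals were 2229069 to 2730309 expected counts at 250 nM and 5887056 to 7351916 at 100 nM, and only the file names of the 250 nM set mention molecular identifiers. Dose and library set therefore cannot be told apart. Replicate 1 of gel at 250 nM stood apart, with counts in 14370 genes against 16037 to 17259 in the other libraries of that dose, 8.11% of protein-coding counts from mitochondrial genes, and a mean correlation across genes of 0.845 with its own group. Replicate 1 of gel at 100 nM held counts in the most genes, 20378. Ribosomal DNA loci gave 30.7% of all counts in that library. Their share was 13.2% in replicate 1 of gel at 250 nM and 14.3% in replicate 1 of plastic at 100 nM. In the other libraries it was 24.2% to 27.4%. The 9 fibroblast markers were all tested, led by FN1 at a mean of 6852 CPM (counts scaled to the effective size of a library). Of 14 leukocyte markers 0 passed the filter, their sum was at most 3.31 CPM in any library, and those at 0 throughout included CD3E, TYROBP, ITGAM and NKG7. Of 10 endothelial markers 1 was tested (TEK, 20.9 CPM), of 12 epithelial markers 4 (led by KRT18, 72.9 CPM) and of 10 pericyte and smooth muscle markers 6 (led by ACTA2, 211 CPM).

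Promoters of the genes are shown because feedback in this pathway runs through NF-kB binding at its own regulators. The κB consensus, the 10-base motif bound by NF-kB dimers, was searched on both strands of RefSeq promoter windows (GRCh38.p14), which span 250 bases before to 50 bases after a start site. Windows were matched for 9 of the 10 members, all but RELB. The motif occurred in 11.3% of all 35116 windows and in any window of 13.3% of 27305 genes. Of the members, NFKB1, NFKB2, NFKBIA, NFKBIZ, TNFAIP3 and BIRC3 held at least 1 match, and the windows of RELA, ICAM1 and SOD2 held none of these letters. TNFAIP3 and BIRC3 held 2 matches each, and those counted in NFKB2 overlap in part. A match describes the sequence and is not a measured binding site. In the following 40-base stretches, written 5′ to 3′ on the strand of the gene, capitals mark 1 match in each gene. The stretch of TNFAIP3 also holds the other match of that window, GGAAAGTCCC, in lower case, and in NFKB2 an overlapping match starts 1 base further on.
NFKB1 (chr4:102501295-102501334, plus strand): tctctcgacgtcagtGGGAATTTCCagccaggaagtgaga
NFKB2 (chr10:102394456-102394495, plus strand): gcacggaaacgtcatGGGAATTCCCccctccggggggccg
NFKBIA (chr14:35404806-35404845, minus strand): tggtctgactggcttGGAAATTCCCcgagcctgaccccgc
NFKBIZ (chr3:101827752-101827791, plus strand): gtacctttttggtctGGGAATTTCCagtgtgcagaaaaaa
TNFAIP3 (chr6:137867189-137867228, plus strand): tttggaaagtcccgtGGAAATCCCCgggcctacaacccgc
BIRC3 (chr11:102317270-102317309, plus strand): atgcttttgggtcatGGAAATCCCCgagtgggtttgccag
The matches in NFKB1 and NFKBIZ have the same letters, NFKBIA holds their reverse complement, and those shown for TNFAIP3 and BIRC3 have the same letters as each other.

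The most abundant transcript per length was SOD2, the manganese superoxide dismutase of mitochondria, and the least abundant was ICAM1, the adhesion receptor that leukocytes bind. On the TPM scale (a share of transcripts, scaled for length and library), SOD2 averaged 302 ± 212 TPM over the 12 libraries (SD, n = 12) and exceeded every other member in all 12. Next came the IkB genes NFKBIA at 81.5 ± 53.2 TPM and NFKBIZ at 68.9 ± 54.7 TPM, then RELA, the transactivating p65 subunit, at 32.4 ± 13.9 TPM. The other subunit genes were lower, with RELB at 10.1 ± 5.93, NFKB1 at 8.24 ± 3.67 and NFKB2 at 5.31 ± 2.89 TPM. BIRC3 averaged 4.29 ± 3.44, TNFAIP3 3.34 ± 3.61 and ICAM1 2.48 ± 1.25 TPM. RELA lay above RELB in all 12 libraries too, so the steps below SOD2 and below RELA held in every library. The other neighbours were not parted beyond their spread: NFKBIA exceeded NFKBIZ in 8 libraries, NFKBIZ exceeded RELA in 7, RELB exceeded NFKB1 in 8, NFKB1 exceeded NFKB2 in 9, NFKB2 exceeded BIRC3 in 7, BIRC3 exceeded TNFAIP3 in 9 and TNFAIP3 exceeded ICAM1 in 6. NFKB2 rested on 3 to 29 counts per library. Its effective length, the transcript length RSEM estimates for each library, varied from 344 to 1551 bases, and that of NFKBIZ from 944 to 2902, both longest in replicate 1 of gel at 250 nM. Their TPM values therefore depend on the isoforms assigned, and comparisons of groups below use CPM.

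**Figure D1:**
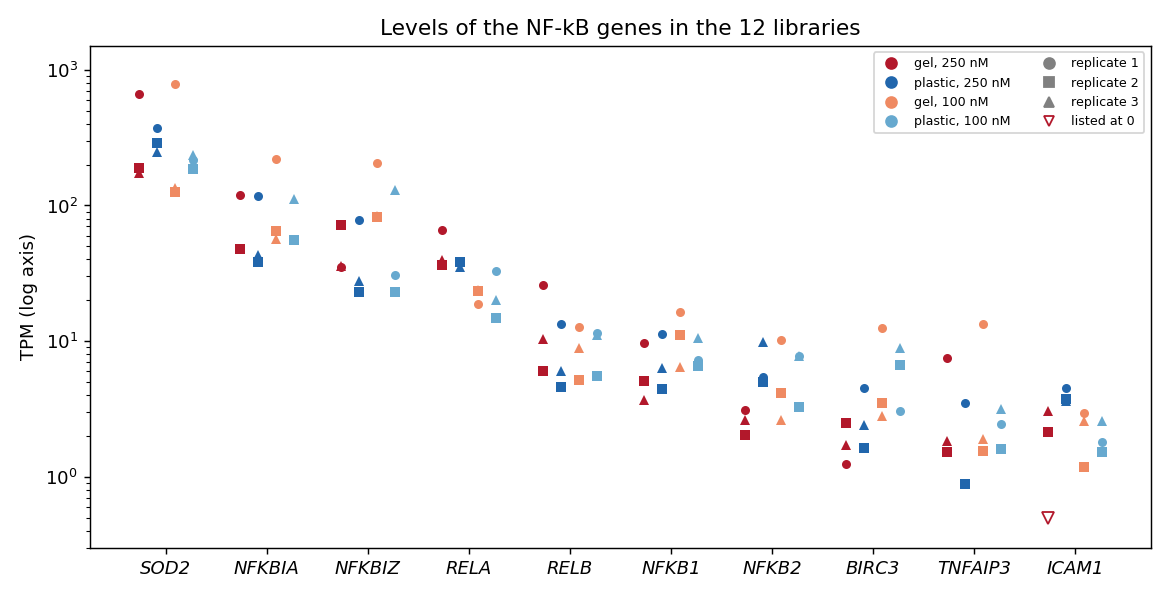
Level of each gene in TPM (log axis) in the 12 libraries, with genes ordered by mean TPM, colours for the 4 groups and marker shapes for the replicates; the open triangle stands for ICAM1 listed at 0. SOD2 lay above all other members in each library, and replicate 1 of both gel groups held the highest SOD2 values, 666 TPM at 250 nM and 792 TPM at 100 nM.

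On gel against plastic, 0 of the 10 genes changed at either dose or on average over both doses in edgeR's quasi-likelihood test (Benjamini-Hochberg adjusted p under 0.05 over all 12329 genes). The share of all genes called was small as well, 0.00811% at 250 nM, 0.227% at 100 nM and 0.754% on average. At an unadjusted p under 0.05 the count of members was 0, 1 and 0, where all genes gave 10%, 9.9% and 12.5%, and DESeq2, limma-voom and limma-trend on TPM called 0 members in each of these comparisons. The median log2 change of the members was 0.22 at 250 nM, 0.25 at 100 nM and 0.29 on average, against -0.021, -0.011 and -0.0048 for all tested genes. These positive medians rested on replicate 1 of both gel groups. Without those libraries the medians were -0.38 at 250 nM, -0.33 at 100 nM and -0.25 on average, against 0.00090, -0.022 and -0.013 for all genes, and 8 of the 10 members lay below 0 on average. The average changed sign for NFKB1, RELB, NFKBIA, TNFAIP3 and SOD2. With all 12 libraries, the members' 95% intervals spanned 0 in all of these comparisons except NFKBIZ at 100 nM. Several of them were wide enough to hold a change of 2-fold or more in either direction. Without replicate 1 of both gel groups, the intervals of SOD2 lay below 0 at each dose and on average, and those of BIRC3 at 100 nM and on average. That of NFKBIZ at 100 nM then spanned 0. The libraries left out came from gel only, and within their groups they were highest for 8 of the 10 members at 250 nM and 9 at 100 nM. All plastic libraries were kept, with replicate 1 at 250 nM, which was highest for 8 members. The negative medians and the intervals below 0 therefore follow from that choice. They are not separate support for lower levels on gel.

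**Figure D2:**
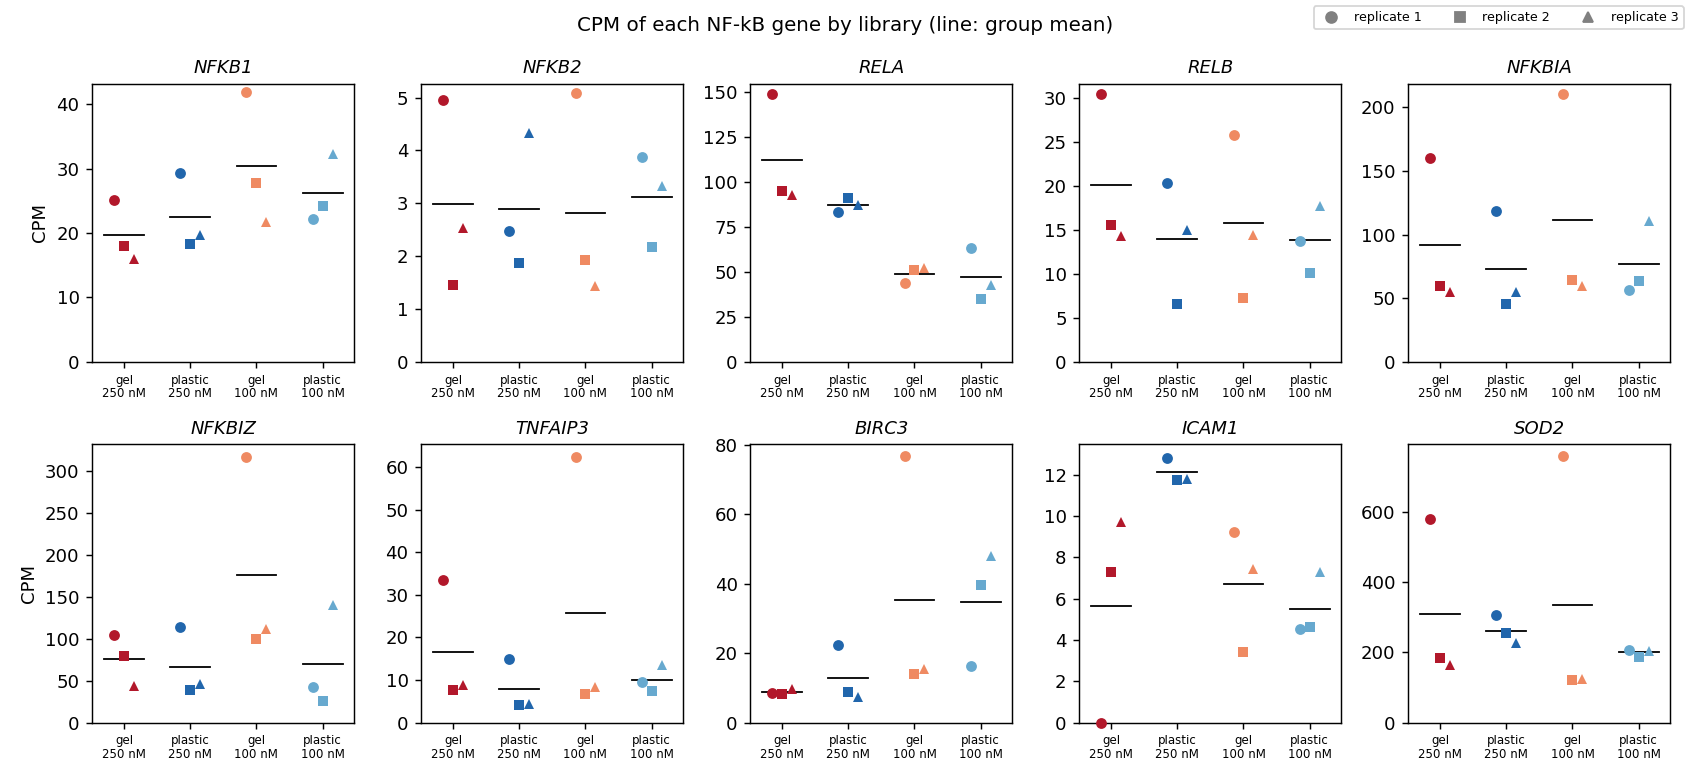
CPM of each gene in each library (linear axes from 0), with gel left of plastic at each dose, marker shapes for replicates and a line for the group mean. Replicate 1 of both gel groups lies far above the others for NFKBIA, TNFAIP3 and SOD2, and RELA is higher at 250 nM than at 100 nM on both substrates.

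Among the subunit genes, RELA (chr11:65653596-65663094, minus strand, GENCODE 29 on GRCh38) had 149, 94.7 and 92.7 CPM on gel at 250 nM, against 83.2, 91.1 and 86.8 CPM on plastic at 250 nM. The gel libraries lay above the plastic ones without overlap, by a narrow margin. At 100 nM RELA had 43.9, 50.9 and 51.9 CPM on gel, against 63.1, 34.7 and 42.9 CPM on plastic, and the groups overlapped. Its log2 change was 0.37 ± 0.24 (SE) at 250 nM with adjusted p = 0.652, and 0.06 ± 0.24 at 100 nM with adjusted p = 0.963. The value at 250 nM was 0.11 ± 0.22 once replicate 1 was dropped from both gel groups, so it rested largely on the library that stood apart. NFKB1, which encodes the p105 precursor of p50, had 25.1, 17.96 and 16.01 CPM on gel at 250 nM, against 29.4, 18.3 and 19.6 CPM on plastic. On gel at 100 nM the values were 41.9, 27.8 and 21.7 CPM, against 22.2, 24.2 and 32.3 CPM on plastic. Groups overlapped at both doses, and the log2 change of NFKB1 averaged over both doses was 0.02 (95% interval -0.44 to 0.47). RELB, the partner of p52 in the alternative arm of the pathway, ranged over 14.3 to 30.4 CPM on gel and 6.57 to 20.3 CPM on plastic at 250 nM, and over 7.29 to 25.8 CPM on gel and 10.1 to 17.7 CPM on plastic at 100 nM. NFKB2, which encodes the p100 precursor of p52, stayed between 1.43 and 5.08 CPM in every library. Neither gene parted gel from plastic at any dose, with adjusted p = 0.732 for RELB and 0.978 for NFKB2 on average.

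NFKBIA (chr14:35401511-35404749, minus strand, GENCODE 29 on GRCh38) encodes IkB-alpha, the inhibitor that NF-kB itself restores. It had 160, 59.7 and 54.8 CPM on gel at 250 nM, against 118, 45.5 and 54.98 CPM on plastic at 250 nM. NFKBIA at 100 nM had 210, 64.6 and 59.3 CPM on gel, against 56.3, 63.5 and 111 CPM on plastic. In 3 of the 4 groups replicate 1 was high and the other replicates were close together, and gel and plastic overlapped. The log2 change averaged over both doses was 0.43 ± 0.38 (SE), with adjusted p = 0.714. Omitting the high gel library at 250 nM gave 0.082, omitting the one at 100 nM gave 0.015, and omitting both gave -0.33 ± 0.26.

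TNFAIP3 (chr6:137867188-137883312, plus strand, GENCODE 29 on GRCh38) encodes A20, a ubiquitin-editing enzyme that stops signalling upstream of the IkB kinases. It had 33.4, 7.77 and 8.85 CPM on gel at 250 nM, against 14.9, 4.22 and 4.32 CPM on plastic at 250 nM. TNFAIP3 at 100 nM had 62.4, 6.74 and 8.27 CPM on gel, against 9.47, 7.43 and 13.5 CPM on plastic. Replicate 1 of gel was the highest library at each dose, and the groups overlapped. The average log2 change was 1.23 ± 0.58 (SE), a fitted 2.34-fold, with unadjusted p = 0.0536 and adjusted p = 0.410. With replicate 1 of both gel groups left out it was -0.17 ± 0.34 (SE), and leaving out replicate 1 of gel at 100 nM alone gave 0.35.

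NFKBIZ encodes IkB-zeta, a nuclear IkB protein that assists transcription of a subset of NF-kB targets. It had 104, 79.1 and 43.8 CPM on gel at 250 nM, against 114, 39.4 and 45.6 CPM on plastic at 250 nM. At 100 nM it had 317, 99.5 and 111 CPM on gel, against 42.2, 25.4 and 141 CPM on plastic. At 100 nM 2 of the 3 plastic libraries lay below every gel library and the third lay within the gel range. The log2 change at 100 nM was 1.34 ± 0.62 (SE), with unadjusted p = 0.0483 and adjusted p = 0.502. It was 0.60 ± 0.56 when replicate 1 of both gel groups was left out. With no filter on low counts, NFKBIZ was called at 100 nM (adjusted p = 7.58e-05) and so was TNFAIP3 (0.0136). The log2 change of NFKBIZ was 1.32 there, close to that of the main fit. At 250 nM the same setting called 231 genes, the most of any alternative, against 1 in the main fit. These calls are therefore not read as a result about NFKBIZ and TNFAIP3.

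BIRC3 encodes cIAP2, a ubiquitin ligase of receptor complexes that protects cells from TNF-induced death. It had 8.59, 8.25 and 9.69 CPM on gel at 250 nM, against 22.3, 8.92 and 7.46 CPM on plastic at 250 nM. At 100 nM it had 76.7, 14.2 and 15.4 CPM on gel, against 16.4, 39.6 and 48.0 CPM on plastic. Apart from the high replicate 1, both gel libraries at 100 nM lay below every plastic library. The log2 change was -0.55 ± 0.70 at 250 nM (adjusted p = 0.840) and 0.02 ± 0.58 at 100 nM (adjusted p = 0.993). The value at 100 nM with replicate 1 of both gel groups left out was -1.22 ± 0.44, with unadjusted p = 0.0151 and adjusted p = 0.233. That fit dropped the highest gel library and kept all plastic libraries, so its direction follows from that choice.

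ICAM1 had 0, 7.28 and 9.69 CPM on gel at 250 nM, against 12.8, 11.7 and 11.8 CPM on plastic at 250 nM. All gel libraries lay below all plastic libraries. The count of 0 was in replicate 1, the library that stood apart, and a count of 0 allows up to 3 counts or 0.991 CPM there (counting error alone). At 100 nM ICAM1 had 9.25, 3.44 and 7.41 CPM on gel, against 4.54, 4.65 and 7.28 CPM on plastic, with overlap. The log2 change at 250 nM was -1.14 ± 0.73 (SE), with adjusted p = 0.639, and -0.51 ± 0.41 without replicate 1 of both gel groups. RELA and ICAM1 were the 2 of 10 members without overlap at 250 nM, where 15.1% of all genes had none, and at 100 nM the count was 0 of 10, where 19% of all genes had none.

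SOD2 (chr6:159669057-159745186, minus strand, GENCODE 29 on GRCh38) was the 1 member called on gel against plastic once replicate 1 of both gel groups was left out. It had 579, 183 and 163 CPM on gel at 250 nM, against 306, 254 and 225 CPM on plastic at 250 nM. At 100 nM it had 759, 120 and 123 CPM on gel, against 207, 188 and 205 CPM on plastic. At each dose replicate 1 of gel lay above every plastic library and the other gel replicates lay below every plastic library. With all 12 libraries the log2 change averaged over both doses was 0.49 ± 0.44 (SE), with adjusted p = 0.715. After removal of replicate 1 from both gel groups it was -0.66 ± 0.12 (SE), a 1.58-fold lower level on gel, and was called with adjusted p = 0.0126. The libraries removed held the highest SOD2 values and came from gel only, with replicate 1 of plastic kept. The direction and small SE of this fit therefore follow from that choice, and the call is not separate support for a lower level on gel. In that fit 2.46% of 12664 genes were called on average and 0.695% at 100 nM, and SOD2 was the 1 called member of 10 on average, with 0 of 10 within each dose. Within doses it gave -0.60 ± 0.17 at 250 nM (adjusted p = 0.266) and -0.72 ± 0.17 at 100 nM (adjusted p = 0.0746). Leaving out replicate 1 of gel at 100 nM alone gave an average of -0.24, and replicate 1 of gel at 250 nM alone 0.06, neither called. WTAP, a gene of the RNA methylation machinery, overlaps SOD2 on the opposite strand, and the strand setting of the counting is not given in the sources used here. WTAP had 121, 85.0 and 64.5 CPM on gel at 250 nM, against 76.1, 77.5 and 75.8 CPM on plastic. At 100 nM it had 110, 60.8 and 59.7 CPM on gel, against 60.7, 77.3 and 79.6 CPM on plastic. Replicate 1 of gel was the highest library for WTAP as well, and the part of WTAP reads in the SOD2 values was not tested. Pericyte and smooth muscle markers summed to 346 to 463 CPM on gel at 250 nM, against 540 to 743 CPM on plastic, and to 164 to 289 CPM on gel at 100 nM, against 297 to 472 CPM on plastic, with none of the 10 at 0 throughout. Endothelial markers summed to 10.1 to 30.7 CPM on gel at 250 nM, against 31.5 to 44.3 CPM on plastic, and to 7.56 to 14.7 CPM on gel at 100 nM, against 17.2 to 31.2 CPM on plastic, with CLDN5 at 0 throughout. Both sums were lower on gel without overlap at each dose. Single markers did not all follow the sums. ACTA2 led the pericyte and smooth muscle sum, and of the 6 tested markers of that list 3 were higher and 3 lower on gel on average (median log2 change -0.15). TEK led the endothelial sum and was the 1 endothelial marker tested. Of the 9 fibroblast markers, 5 were called lower on gel on average over both doses and 0 higher, with a median log2 change of -0.85. Their sum was 10866 to 11905 CPM on gel at 250 nM, against 12152 to 15261 CPM on plastic, and 10353 to 13174 CPM on gel at 100 nM, against 12132 to 13302 CPM on plastic, with none at 0. The part of these markers in the SOD2 result was not tested.

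**Figure D3:**
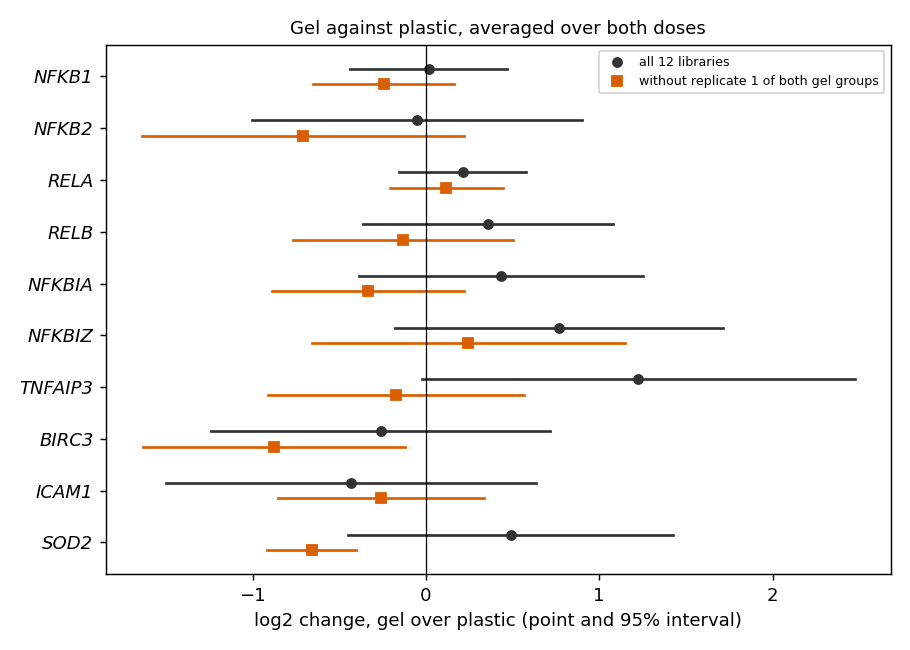
Log2 change of gel over plastic averaged over both doses, with 95% intervals from edgeR's quasi-likelihood fit, for all 12 libraries (circles) and without replicate 1 of both gel groups (squares). SOD2 lies at 0.49 with all libraries and at -0.66 without those libraries, where its interval is -0.92 to -0.40.

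The high replicate 1 was shared by many of the genes. Of the 10 members, 8 were highest in replicate 1 within gel at 250 nM, 8 within plastic at 250 nM, 9 within gel at 100 nM and 3 within plastic at 100 nM, where replicate 3 led for 7. In gel at 100 nM, NFKB2, NFKBIA, NFKBIZ, TNFAIP3, BIRC3 and SOD2 were at least 2 times as high in replicate 1 as in the higher of the other replicates. That is 6 of 10 members, against 4.32% of all genes. In gel at 250 nM NFKBIA, TNFAIP3 and SOD2 were so, 3 of 10, against 10.5% of all genes. In plastic at 250 nM NFKBIA, NFKBIZ, TNFAIP3 and BIRC3 were so, 4 of 10, against 5.38%, and in plastic at 100 nM 0 of 10, against 3.61%. The ratio reached 7.55 for TNFAIP3 and 6.16 for SOD2 in gel at 100 nM, both over the middle replicate. In the same group RELA was lowest in replicate 1, and ICAM1 was 1.25 times its middle value there. In bulk RNA, fewer cells of a type and less RNA per cell cannot be told apart. Leukocyte markers summed to 0.330 to 1.94 CPM in the gel libraries at 250 nM, against 0.785 to 3.31 CPM on plastic, and to 0.137 to 0.544 CPM in the gel libraries at 100 nM, against 0.465 to 2.69 CPM on plastic, so the summed level in gel was near 0.

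**Figure D4:**
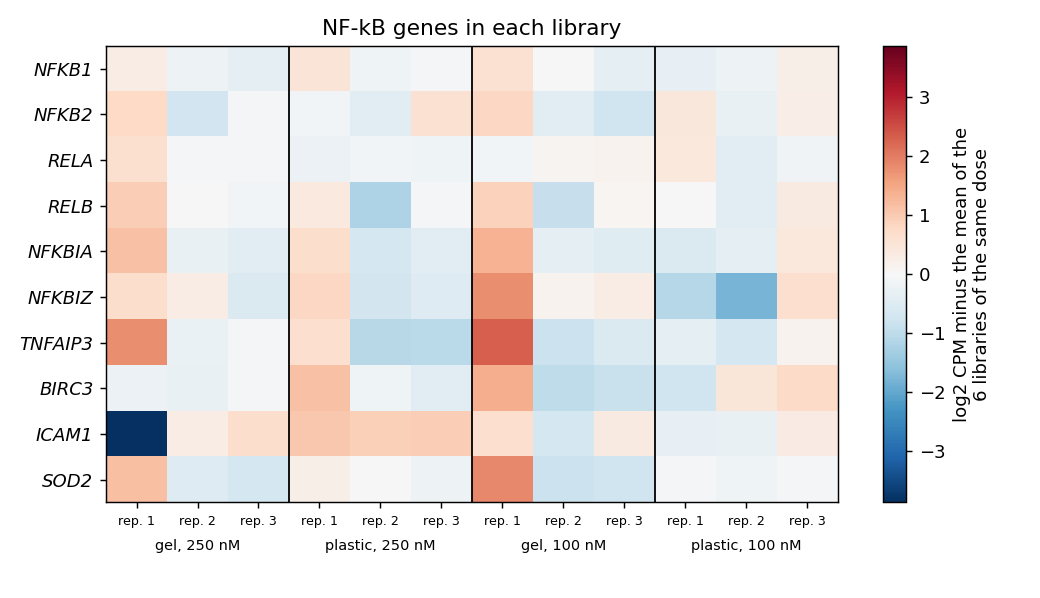
Log2 CPM of each gene in each library minus the mean of the 6 libraries of the same dose (red above, blue below). Replicate 1 of both gel groups is red for most genes, while ICAM1, with 0 counts, is the darkest blue cell in replicate 1 of gel at 250 nM.

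At 250 nM against 100 nM, RELA rose on both substrates. On gel it had 149, 94.7 and 92.7 CPM at 250 nM, against 43.9, 50.9 and 51.9 CPM at 100 nM. On plastic it had 83.2, 91.1 and 86.8 CPM at 250 nM, against 63.1, 34.7 and 42.9 CPM at 100 nM. The doses did not overlap on either substrate. RELA was 2.29-fold higher on gel (log2 1.20 ± 0.24 SE, adjusted p = 0.00923) and 1.85-fold higher on plastic (0.89 ± 0.24, adjusted p = 0.0392) in edgeR's test. It was the 1 called member of 10 on each substrate, where 13.8% of all genes were called on gel and 8.52% on plastic. On gel it was called under all 25 alternatives. On plastic it was called under 16 of 25 and lost when any library of plastic at 250 nM, replicate 2 or 3 of plastic at 100 nM, replicate 2 or 3 of gel at 100 nM or replicate 3 of gel at 250 nM was left out, with adjusted p from 0.0504 to 0.150 there, and with limma-trend on TPM (0.125). With the dose, the library set, its depth and the mitochondrial share of protein-coding counts (4.24% to 8.11% at 250 nM, against 2.58% to 4.06% at 100 nM) also differed, and their part in the result was not tested.

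BIRC3 had the largest difference in the other direction. On gel its 8.25 to 9.69 CPM at 250 nM lay below its 14.2 to 76.7 CPM at 100 nM, and on plastic its 7.46 to 22.3 CPM at 250 nM overlapped with 16.4 to 48.0 CPM at 100 nM. The log2 change was -1.99 ± 0.66 on gel (adjusted p = 0.0597) and -1.42 ± 0.64 on plastic (adjusted p = 0.178), neither called. DESeq2 called the difference on gel (adjusted p = 0.0134), as did edgeR without replicate 2 of gel at 100 nM (0.0484) or without replicate 3 of gel at 100 nM (0.0469). In the fit that left out replicate 1 of both gel groups the value on gel was -0.72 ± 0.55, and the one on plastic, -1.42 ± 0.42, was called (adjusted p = 0.0312), as were 20.1% of all genes. ICAM1 on plastic lay at 11.7 to 12.8 CPM at 250 nM, against 4.54 to 7.28 CPM at 100 nM, without overlap and with a log2 change of 1.14 ± 0.69 (adjusted p = 0.317). It was called when the libraries on gel were left out (0.0375), when replicate 1 of gel at 250 nM was left out (0.0465) and when replicate 1 of both gel groups was (0.0330). The plastic libraries were the same in each of these fits, and the log2 changes were 1.15, 1.13 and 1.14. The last of these fits called 20.1% of all genes, so these calls are not separate support for ICAM1. SOD2 on plastic lay at 225 to 306 CPM at 250 nM, against 188 to 207 CPM at 100 nM, with a log2 change of 0.39 ± 0.62 (adjusted p = 0.736). Groups without overlap were thus 2 of 10 members on gel and 3 of 10 on plastic, where 35.8% of all genes had none on each substrate.

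**Figure D5:**
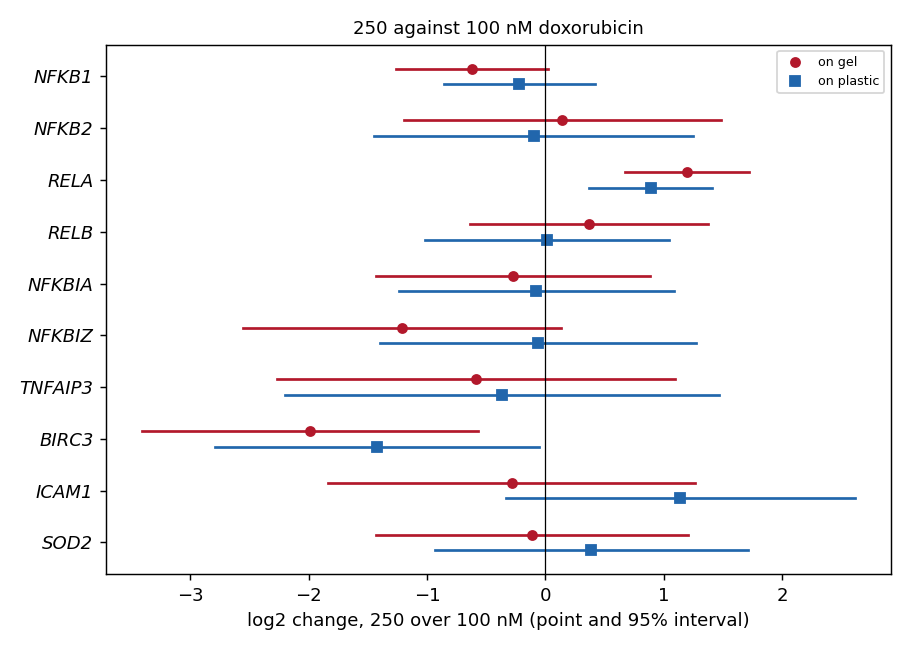
Log2 change of 250 over 100 nM doxorubicin on gel (circles) and on plastic (squares) with 95% intervals from edgeR's quasi-likelihood fit. The RELA intervals, 0.68 to 1.72 on gel and 0.37 to 1.41 on plastic, lie above 0, and both BIRC3 intervals lie below 0.

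The difference between the gel effects at 250 and 100 nM was called for 0 of the 10 genes and 0 of 12329 in all (0%), with edgeR, DESeq2, limma-voom and limma-trend. At an unadjusted p under 0.05 there were 0 members and 779 genes, 6.32%. The largest was ICAM1, with a difference of -1.43 ± 0.99 on the log2 scale (unadjusted p = 0.174).

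Other genes of the pathway were taken from lists chosen by role. For these lists, changed means called, and a gene that was not called may still differ. Their calls with dose stand beside 13.8% of all genes called on gel and 8.52% on plastic, for every list below. Of the subunit and other IkB genes, 4 of 5 were tested and 0 changed with the substrate. NFKBIE, which encodes IkB-epsilon, rose at 250 nM on gel (20.8, 11.7 and 13.1 CPM at 250 nM, against 8.16, 5.50 and 5.70 CPM at 100 nM; log2 1.25 ± 0.34, adjusted p = 0.0292). NFKBIB and BCL3 did not pass on average over both doses, with log2 changes on gel against plastic of 0.24 and -0.33. The median log2 change of a list on gel against plastic, averaged over both doses, was -0.07 for these genes, 0.07 for kinases and adaptors, 0.06 for receptors, -0.61 for ligands, 0.12 for other feedback inhibitors, 0.15 for survival targets, -0.21 for adhesion and surface targets, 0.25 for superoxide and peroxide enzymes and 2.06 for secreted targets, against -0.0048 for all genes. The part of replicate 1 of both gel groups in these medians was not tested. The high median of the secreted targets is therefore not read as a broad rise on gel. Of the IkB kinase and adaptor genes, 20 of 22 were tested and 0 changed with the substrate. With dose, 2 rose and 2 fell on gel, where 13.8% of all genes were called, and 3 rose and 1 fell on plastic, where 8.52% were. RBCK1, a subunit of the linear ubiquitin ligase, and TRADD, the adaptor of the TNF receptor, rose on both substrates (log2 0.86 and 1.01 on gel, 0.63 and 1.46 on plastic), TBK1 and CHUK fell on gel (-1.56 and -1.64), IRAK1 rose on plastic (0.89) and TAB2 fell there (2.01-fold lower). TRAF3 and IRAK1 had the lowest p of this list between substrates, with average log2 changes of 0.44 (adjusted p = 0.272) and 0.40 (0.289). Of the receptors, 10 of 13 were tested, 0 changed with the substrate, and TNFRSF1A, the main TNF receptor, rose on gel (0.92) and IL17RA on both (0.65 on gel, 0.77 on plastic), while TNFRSF12A fell on plastic (-2.53). IL1RAP, the accessory chain of the interleukin-1 receptor, and TNFRSF1B, the second TNF receptor, gave -0.64 and 0.45 on gel against plastic on average (adjusted p = 0.486 and 0.520).

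Among ligands that switch NF-kB on, TNF itself had 0 counts in every library, which allows at most 0.400 to 1.46 CPM per library. IL1B, the gene of interleukin-1 beta, had 19.2, 6.31 and 3.79 CPM on gel at 250 nM, against 4.14, 1.88 and 1.18 CPM on plastic at 250 nM, and 125, 3.30 and 7.13 CPM on gel at 100 nM, against 0.801, 0.619 and 2.06 CPM on plastic at 100 nM. Replicate 1 of gel led at each dose. The log2 change averaged over both doses was 3.66 ± 0.88 (SE), with adjusted p = 0.0774. Of the 12 ligands 5 were tested and 0 were called between substrates. At an unadjusted p under 0.05 in edgeR's test on average there were 3 of 5, where all genes gave 12.5%. HMGB1, a nuclear protein that acts as a danger signal outside cells, fell with dose on both substrates (log2 -1.36 on gel, -1.06 on plastic). On gel against plastic HMGB1 gave an average of -0.61 ± 0.21 (adjusted p = 0.225), and TNFSF10, the death ligand TRAIL, -1.98 ± 0.53 (adjusted p = 0.105).

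Of the other feedback inhibitors, 13 of 14 were tested and 0 changed with the substrate. TNIP1 and TNIP2, partners of A20, gave average log2 changes of 0.47 and 0.73 (adjusted p = 0.317 and 0.114), and ZC3H12A, an RNase that degrades inflammatory transcripts, 1.81 (0.284), while TAX1BP1, an adaptor of A20, gave 0.11 (0.914). Replicate 1 of gel was the highest library for ZC3H12A at each dose, with 39.7, 6.31 and 1.69 CPM on gel at 250 nM and 25.8, 3.57 and 3.71 CPM on gel at 100 nM. With dose, ITCH, a ubiquitin ligase that works with A20, fell on gel (log2 -1.39), and N4BP1 fell on both substrates (-0.97 on gel, -0.83 on plastic). Of the survival targets 6 of 8 were tested and 0 changed with the substrate, and GADD45B fell with dose on plastic (-1.01). BCL2L1, IER3 and BIRC2 gave 0.59, 0.67 and 0.08 on gel against plastic on average (adjusted p = 0.218, 0.501 and 0.882). IER3 was highest in replicate 1 of gel at each dose, with 1121, 234 and 200 CPM on gel at 250 nM and 347, 143 and 159 CPM on gel at 100 nM. Of the adhesion and surface targets 11 of 14 were tested and 0 changed with the substrate, B2M being nearest with -0.57 ± 0.13 (adjusted p = 0.0608) and HLA-B at -0.42 (0.449), and PLAU, the urokinase gene, fell with dose on plastic (-2.97). Beside SOD2, the list of superoxide and peroxide enzymes also held FTH1, the ferritin heavy chain, which is not such an enzyme. Of its 9 genes 8 were tested, 0 changed with the substrate, and FTH1 rose with dose on gel (0.54). SOD1, the cytoplasmic superoxide dismutase, changed by -0.09 on gel against plastic on average (adjusted p = 0.837), and the mitochondrial enzymes PRDX5 and TXN2 by 0.56 and 0.55 (0.233 and 0.138).

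The secreted targets were the only one of these lists with calls between substrates, 2 higher and 1 lower at 100 nM, 0 at 250 nM and 2 higher on average, among 11 tested of 21. Of all genes, 0.227% were called at 100 nM, 0.00811% at 250 nM and 0.754% on average. MMP1, the interstitial collagenase, had 554, 264 and 335 CPM on gel at 100 nM, against 75.5, 64.0 and 42.9 CPM on plastic at 100 nM (log2 2.66 ± 0.30, adjusted p = 0.00329). MMP3, stromelysin, had 154, 11.3 and 22.0 CPM on gel at 100 nM, against 2.27, 0.465 and 0.475 CPM on plastic (5.77 ± 1.01, adjusted p = 0.0332). CCL2, a monocyte attractant, was lower, with 3.08, 2.61 and 2.42 CPM on gel at 100 nM, against 17.5, 15.8 and 6.65 CPM on plastic (-2.29 ± 0.40, adjusted p = 0.0332). Of the listed targets, MMP1 and MMP3 were thus called higher and CCL2 lower, while the 10 members were not called. Whether these calls run through NF-kB, and whether the lists differ, was not tested. The call held under 25 of 25 alternatives for MMP1, 13 of 25 for MMP3 and 12 of 25 for CCL2. CXCL8, the interleukin-8 gene, gave an average log2 change of 3.07 ± 0.98 (adjusted p = 0.180). The part of replicate 1 of both gel groups in this value was not tested. For CXCL5, another chemokine gene, replicate 1 of gel at 100 nM had 178 CPM. The other gel replicates of that dose had 0.962 and 1.43 CPM, against 0.929 to 2.85 CPM on plastic. For MMP1 and MMP3 at 100 nM, the other gel replicates also lay above every plastic library. IL32 fell with dose on both substrates (log2 -1.58 on gel, -1.31 on plastic).

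Within a dose, several members moved together from library to library, some of them mainly through replicate 1 of the gel groups. Over 12 libraries, on log2 CPM after the mean of each dose was subtracted, NFKBIA and TNFAIP3 had Pearson r = 0.946 and Spearman rho = 0.769, NFKBIA and NFKB1 0.911 and 0.790, and TNFAIP3 and SOD2 0.866 and 0.538. Over the 10 libraries other than replicate 1 of both gel groups r was 0.825, 0.901 and 0.307. These are descriptions without a test, since libraries share groups, depth and RNA make-up. The link of SOD2 with TNFAIP3 rested on those libraries, and that of NFKBIA with NFKB1 did not. NFKBIZ had r = 0.789 with NFKBIA, 0.741 with TNFAIP3 and 0.546 with SOD2, and 0.655, 0.539 and -0.120 without those libraries. RELA had r = -0.727 with ICAM1 and -0.201 without those libraries, so this value rested on them too.

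Of 9551 other genes with a mean of at least 5 CPM, the most like NFKBIA were ZC3H12C, which encodes a relative of the RNase regnase-1 (r = 0.969, rho = 0.811), NUP58, a nuclear pore gene (0.946, 0.874), and RASGRF2, a Ras exchange factor gene (0.944, 0.629). For TNFAIP3 they were TAMM41, a gene of mitochondrial lipid synthesis (0.950, 0.937), ZC3H12C (0.941, 0.797) and CXCL5, a neutrophil attractant (0.936, 0.867). Over those 10 libraries these values were 0.906, 0.851 and 0.909 for NFKBIA and 0.877, 0.771 and 0.849 for TNFAIP3. For SOD2 they were MAPK10 (0.925, 0.902), SLC4A7 (0.901, 0.853) and MAFF (0.899, 0.545), with 0.846, 0.814 and 0.391 without those libraries. For ICAM1 they were RIF1, SPAG9 and SLF1 (r = 0.974, 0.972 and 0.971), with 0.473, 0.532 and 0.631 without them. RIF1 had 5.62 CPM in replicate 1 of gel at 250 nM, against 53.0 to 104 CPM elsewhere, and SLF1 had 0, so the likeness to ICAM1 turned on the library in which ICAM1 had 0 counts.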

How the data were processed

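Polyadenylated RNA of 12 libraries was analysed from deposited gene tables of 61541 identifiers. Trimmomatic, STAR, RSEM, DESeq2 1.36.0 and the build GRCh38 are named in the submitters' processing notes. The annotation release, the strand setting and any collapsing of molecular identifiers were not stated there or in the labels. The values were deposited as RSEM expected counts, estimated reads per gene, and as TPM, scaled for length and library total, per the file headers. The effective lengths deposited beside them are transcript bases that a read can start from. Symbols came from a name table (61369 identifiers) and GENCODE 29 (159, with SOD2, and the overlapping genes). Promoters came from RefSeq tables.

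Expected counts were rounded and fitted in R 4.3.3 with edgeR 4.0.16 (filterByExpr, TMM, quasi-likelihood, 1 mean per group over 12 libraries, 8 residual degrees of freedom). P-values were adjusted by Benjamini-Hochberg over all 12329 genes of a comparison and called under 0.05. Standard errors are the log2 change over the root of F. CPM uses TMM-scaled totals. Likeness was computed on log2 CPM (prior count 2). Alternatives, 25 with 1 added later, included DESeq2 1.42.0, limma 3.58.1 (voom, and trend on log2 of TPM plus 1), other scalings and filters, and libraries left out. On simulated data of 12012 genes the test recovered 16% of 2-fold and 74% of 4-fold changes for gel against plastic at 250 nM.

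The members and lists were chosen with earlier results of these data known. Named are all members, up to 4 called genes a list, the 2 of highest TPM and the 2 of lowest p between substrates, and the 3 genes most like NFKBIA, TNFAIP3, ICAM1 and SOD2. Some genes that the rule names for level or dose alone are given only in the counts.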

Additional observations from a re-analysis of the deposited data

How the results depend on the processing

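Of 1473 values of a member under an alternative, 1286 kept their direction and their side of the threshold, 158 changed sign without a call on either side, 17 gained a call, 9 lost one and 3 reversed with a call. All 3 reversals were SOD2 on gel against plastic: -0.66 (log2) averaged over both doses without replicate 1 of both gel groups, and, in a setting chosen after seeing the data that also left out replicate 1 of plastic at 250 nM, -0.595 on average (adjusted p = 0.0157) and -0.72 at 100 nM (0.0389). All 9 lost calls were RELA with dose on plastic.

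Members called were 0 between substrates at 250 nM under every alternative run. At 100 nM they were 2 with no filter on low counts and 1 in the added setting, and on average 2 with no filter, 1 without replicate 1 of both gel groups and 1 in the added setting. With dose on gel they were 3 with no filter, 2 with DESeq2 and 1 to 2 leaving out 1 library at a time. With dose on plastic they were 2 with no filter, 2 with limma-voom, 2 with only the 6 libraries compared, 0 with limma-trend on TPM, 3 without replicate 1 of both gel groups, 3 in the added setting and 0 to 2 leaving out 1 library at a time. Calls over all genes moved with the setting too. With dose on plastic they were 3173 with limma-voom with sample weights, against 1050 in the main fit. They were 2540 of 12664 (20.1%) without replicate 1 of both gel groups and 95 without replicate 2 of plastic at 250 nM. Changes in the member counts are therefore not a result about the members. With the replicate number as a block the members called were 1 with dose on gel, 1 with dose on plastic and 0 between substrates, as without it, and genes called on average between substrates were 105, against 93. Whether the labels' numbers pair the samples was not settled. Of 18 same-numbered pairs, 8 had deviations correlated over 0.1 (median 0.071), and of 36 pairs with different numbers 9 did (median -0.051).

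Over all genes, calls ran from 0 to 231 for gel against plastic at 250 nM (main 1), 3 to 447 at 100 nM (main 28), 37 to 801 on average (main 93), 0 to 129 for the difference between doses (main 0), 525 to 2925 with dose on gel (main 1703) and 95 to 3173 with dose on plastic (main 1050). The lower depth at 250 nM limits NFKB2, RELB, TNFAIP3, BIRC3 and ICAM1, which had under 40 counts in most of those libraries. By CPM in place of TPM, NFKBIZ stood above NFKBIA and NFKB2 was last.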
